A study of Mus musculus with 9 samples.

Results

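Genes of antigen presentation were followed in mouse heart by RNA sequencing. The 10 genes were chosen by name from the 55401 genes of the count table, through their Ensembl identifiers, and each matched 1 row. Class I presentation is represented by 6 of them (H2-K1, H2-D1, B2m, Tap1, Psmb8 and Psmb9) and class II presentation by 4 (H2-Aa, H2-Ab1, H2-Eb1 and Cd74). All 10 were among the 19091 genes with enough counts to be tested, and the lowest count of any of them in any library was 240, for Psmb9. All hearts came from C57BL/6 mice, an inbred strain. The group labelled Ctrl received PBS, a salt buffer. The group labelled Ang II received angiotensin II, a hormone that raises blood pressure, and the group labelled Kmo+Ang II received it too. What Kmo stands for is not given in the labels, and neither are the ages of the animals, a dose, a time or a genotype. Each group holds 3 libraries. The sample titles start with WC for Ctrl replicate 1 and Ang II replicates 1 and 2, with WA for Ctrl replicates 2 and 3 and Ang II replicate 3, and with KKA for the Kmo+Ang II libraries, so the title letters cross the Ctrl and Ang II labels. The labels do not tell whether the libraries of 1 group are separate animals, so p-values measure the spread between these libraries, which may be technical.

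MHC class I molecules are carried by nearly all nucleated cells and show fragments of proteins made inside the cell to CD8 T cells. The fragments are cut by the proteasome, whose catalytic subunits are exchanged for Psmb8 and Psmb9 under interferon gamma, and are pumped into the endoplasmic reticulum by the Tap1 and Tap2 transporter. There they bind a heavy chain, such as those encoded by H2-K1 and H2-D1, paired with the light chain B2m. MHC class II molecules are carried mainly by dendritic cells, B cells and macrophages, which a heart holds in small numbers among its muscle cells. They show fragments of engulfed proteins to CD4 T cells, and their alpha and beta chains are escorted by the invariant chain Cd74. Transcription of class II genes depends on the coactivator Ciita, and that of class I genes on its relative Nlrc5. Both act through a promoter module that holds an X box and a Y box.

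The promoters of 8 of the 10 genes were found in the RefSeq promoter table for build GRCm38.p6, which is not the build named in the submitters' notes. H2-Ab1 and Cd74 were not matched. The 200 bases before the start of H2-K1, H2-D1, Tap1, H2-Aa and H2-Eb1 are shown because they set the heavy chain genes and the class II genes side by side, with Tap1 as a class I gene of another role. Capitals mark the matches of the kappa B, cyclic AMP response element, X box and Y box letters described after them, the Y box reading ATTGG or, on the other strand, CCAAT. Matches of the interferon response letters are left in lower case.
H2-K1 (chr17:34000348-34000547, - strand): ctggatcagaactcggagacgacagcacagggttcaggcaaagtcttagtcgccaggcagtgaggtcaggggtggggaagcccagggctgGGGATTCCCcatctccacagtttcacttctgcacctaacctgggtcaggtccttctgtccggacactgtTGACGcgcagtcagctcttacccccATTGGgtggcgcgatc
H2-D1 (chr17:35262894-35263093, + strand): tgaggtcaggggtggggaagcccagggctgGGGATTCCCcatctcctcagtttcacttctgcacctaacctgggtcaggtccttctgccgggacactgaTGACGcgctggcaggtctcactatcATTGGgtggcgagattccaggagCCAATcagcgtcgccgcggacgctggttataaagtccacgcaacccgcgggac
Tap1 (chr17:34187356-34187555, + strand): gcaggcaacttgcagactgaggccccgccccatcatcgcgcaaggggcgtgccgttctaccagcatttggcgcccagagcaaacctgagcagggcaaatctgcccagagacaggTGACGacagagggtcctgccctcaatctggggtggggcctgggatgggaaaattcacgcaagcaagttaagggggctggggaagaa
H2-Aa (chr17:34287824-34288023, - strand): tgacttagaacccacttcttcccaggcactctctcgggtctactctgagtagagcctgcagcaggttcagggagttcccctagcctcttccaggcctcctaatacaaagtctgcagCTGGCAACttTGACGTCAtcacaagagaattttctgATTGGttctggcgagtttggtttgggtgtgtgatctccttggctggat
H2-Eb1 (chr17:34305667-34305866, + strand): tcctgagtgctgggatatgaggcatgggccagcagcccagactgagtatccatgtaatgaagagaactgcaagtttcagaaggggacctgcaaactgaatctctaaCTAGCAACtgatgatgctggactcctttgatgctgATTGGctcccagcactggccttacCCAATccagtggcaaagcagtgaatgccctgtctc

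Single motifs were searched on both strands of the 200 bases before the start of 27025 promoters. Pairs of motifs were searched on the strand of the gene only, so shares of pairs and of single motifs are not like for like. GGGATTCCC, the core of the kappa B site in enhancer A of the class I genes, was found in 60 promoters (0.222%), and H2-K1 and H2-D1 were among them. In both, TGACG, part of the cyclic AMP response element, begins 69 bases after the first base of that site, and ATTGG, the Y box read as an inverted CCAAT, begins 25 bases after TGACG. The sequences of H2-K1 and H2-D1 were identical at 89 of 100 bases from that site on. TGACG occurs in 15.8% and ATTGG in 30% of all promoters, counting either strand. On the strand of the gene, TGACG followed by ATTGG, 20 to 30 bases from first base to first base, was found in 55 promoters (0.204%). B2m has the same pair at a distance of 25 bases and H2-Aa at 26 bases. The range holds the distance seen in H2-K1 and H2-D1, so finding members in it is no test. In H2-Aa, TGACG lies on both strands and overlaps itself as TGACGTCA.

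CTNGCAAC, a form of the X box, was found in 2.54% of promoters. A range of 20 to 35 bases between this motif and ATTGG was set after the class II promoters had been looked at. With ATTGG following in that range on the strand of the gene, CTNGCAAC was found in 9 promoters (0.0333%). Among these were H2-Aa, H2-Eb1 and H2-Ob, which encodes a chain of a class II peptide loading regulator. X and Y motifs begin 36 bases apart in H2-Aa and 35 bases apart in H2-Eb1. The interferon response element core GAAANNGAA was found in 5.62% of promoters and was present in B2m. The overlapping motif AANNGAAA, found in 17.2% of promoters, was present in H2-K1, H2-D1 and B2m. The window of Tap1 held TGACG, that of Psmb9 held TGACG and ATTGG, and that of Psmb8 held none of these letters. A match describes letters in a window and is not evidence of binding.

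Compared per length of exon, the 10 genes spanned a wide range of levels. B2m was highest at 521 ± 164 CPM per kilobase (CPM are counts scaled to the library size; mean ± SD over all 9 libraries), followed by H2-D1 at 99.0 ± 27.7 and H2-K1 at 78.5 ± 28.9. Cd74 stood at 43.0 ± 18.9, above its class II partners H2-Eb1 at 11.5 ± 5.84, H2-Ab1 at 10.1 ± 4.52 and H2-Aa at 7.77 ± 3.70. The lowest levels per kilobase were those of Psmb8 at 5.31 ± 1.51, Tap1 at 3.88 ± 1.20 and Psmb9 at 3.24 ± 1.06. The ranges of 1 SD overlapped for H2-D1 and H2-K1, among the 3 class II chains and among the last 3 genes. With these lengths, H2-D1 lay above H2-K1 and H2-Ab1 above H2-Aa in 9 of 9 libraries. H2-Eb1 lay above H2-Ab1 in 6 of 9, Psmb8 above Tap1 in 8 of 9 and Tap1 above Psmb9 in 6 of 9. Exon lengths join the exons of all transcripts and were taken from another annotation than the one used for counting, so this order is approximate. The joined exons of H2-K1 and H2-D1 span 2.938 and 2.579 kilobases, but their longest coding transcripts 1619 and 2102 bases. For H2-Aa and H2-Ab1 these were 3.798 and 2.568 kilobases, but 1128 and 1212 bases. The order among genes of near level, and the number of libraries that show it, thus depend on the length chosen.

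**Figure D1:**
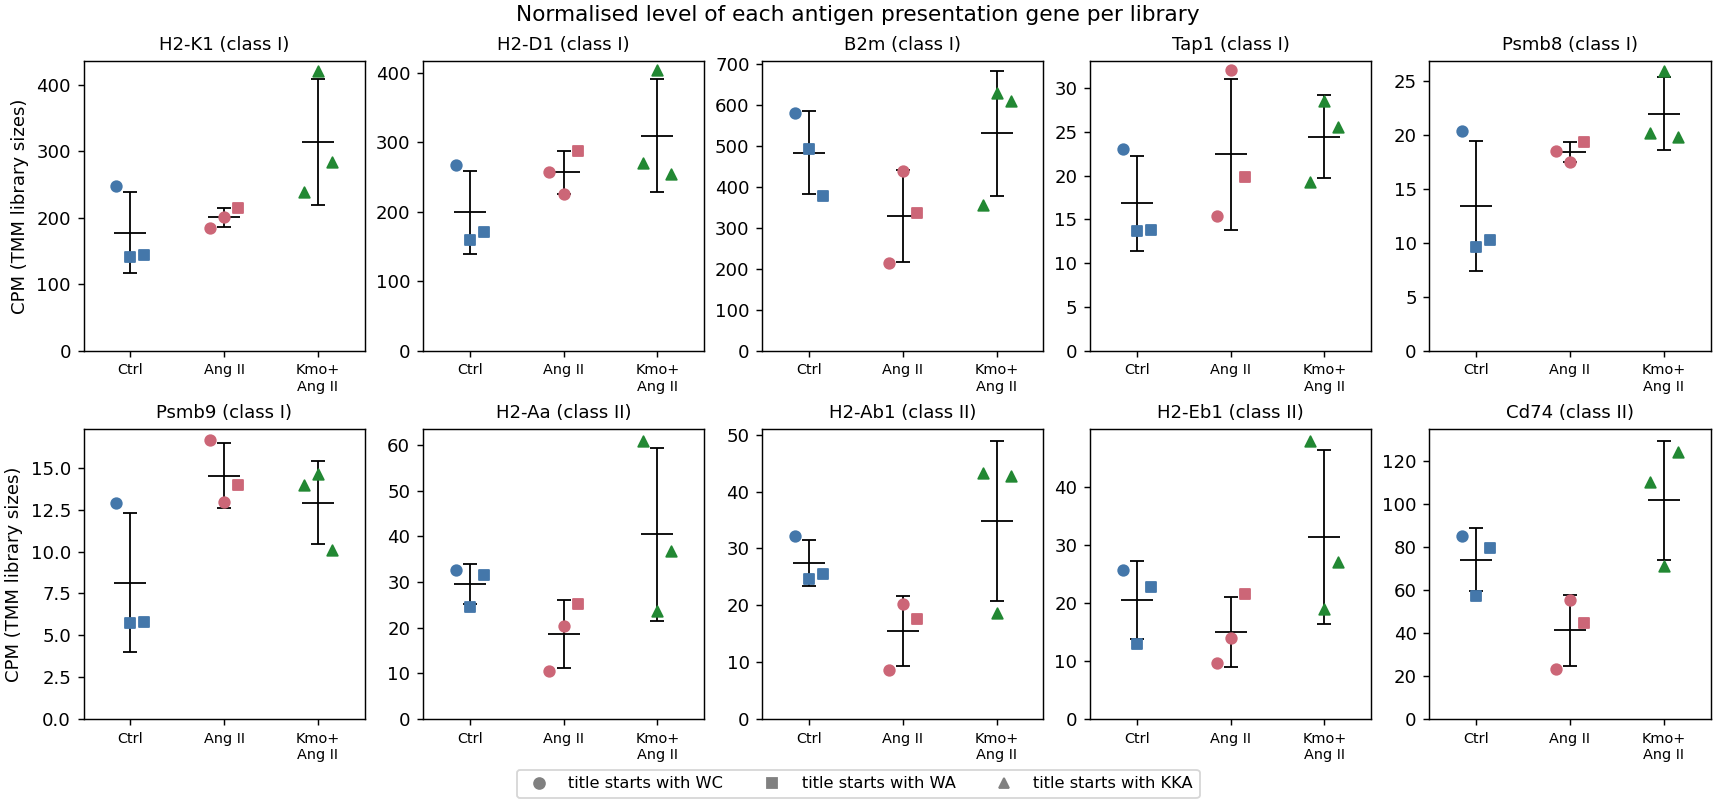
Each panel plots 1 gene in CPM on TMM library sizes, with 1 point per library in the groups Ctrl, Ang II and Kmo+Ang II. Long bars are group means, short bars 1 SD, and the marker shape gives the title letters; Cd74 in the 3 Ang II libraries lies below every library of both other groups.

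H2-K1 encodes a classical class I heavy chain. It stood at 248, 141 and 143 CPM in the 3 Ctrl libraries, at 185, 201 and 215 CPM in the Ang II libraries, and at 239, 420.1 and 283 CPM in the Kmo+Ang II libraries. All Kmo+Ang II libraries lay above all Ang II libraries, while Ctrl replicate 1 lay above both the Ang II libraries and Kmo+Ang II replicate 1. H2-D1, the second classical heavy chain of this strain, stood at 268, 159.8 and 171 CPM in Ctrl, at 257, 225 and 288 CPM in Ang II, and at 271, 404 and 255 CPM in Kmo+Ang II. Its groups overlapped throughout, with the high value in Kmo+Ang II replicate 2 and the low ones in Ctrl replicates 2 and 3. Counts of these genes are uncertain to the extent that reads are shared with other heavy chain genes: 8.79% of the 50-base windows of the H2-K1 transcript and 14.3% of those of H2-D1 also occur in transcripts of other genes. At 100 bases the shares were 0% and 4.64%.

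The light chain B2m stood at 580.5, 493 and 377.5 CPM in Ctrl, at 214, 438 and 337 CPM in Ang II, and at 355, 628 and 609 CPM in Kmo+Ang II. Ang II replicate 1 was the lowest library and the groups overlapped. B2m thus did not share its low libraries with the heavy chains, which were lowest in Ctrl replicate 2.

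Tap1, a chain of the peptide transporter, stood at 23.1, 13.7 and 13.8 CPM in Ctrl, at 15.4, 32.0 and 19.8 CPM in Ang II, and at 19.2, 28.6 and 25.6 CPM in Kmo+Ang II. Psmb8, a catalytic subunit of the immunoproteasome, stood at 20.4, 9.64 and 10.3 CPM in Ctrl, at 18.5, 17.5 and 19.3 CPM in Ang II, and at 20.2, 25.9 and 19.8 CPM in Kmo+Ang II. Psmb9, a second such subunit, stood at 12.9, 5.72 and 5.80 CPM in Ctrl and at 16.7, 13.0 and 14.0 CPM in Ang II. In Kmo+Ang II it stood at 14.0, 14.7 and 10.1 CPM. For all 3 genes Ctrl replicates 2 and 3 were the lowest libraries and Ctrl replicate 1 lay among the treated libraries. Psmb9 was the only class I gene whose Ang II libraries all lay above all Ctrl libraries, by a margin of less than 0.1 CPM between the nearest. Across the class I genes the highest library was between 2.35 and 2.98 times the lowest.

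H2-Aa encodes the alpha chain of the class II molecule I-A. It stood at 32.5, 24.5 and 31.5 CPM in Ctrl, at 10.5, 20.2 and 25.2 CPM in Ang II, and at 60.9, 23.6 and 36.7 CPM in Kmo+Ang II. H2-Ab1, its beta chain, stood at 32.1, 24.6 and 25.6 CPM in Ctrl, at 8.56, 20.3 and 17.7 CPM in Ang II, and at 43.3, 18.6 and 42.7 CPM in Kmo+Ang II. All Ang II libraries of H2-Ab1 lay below all Ctrl libraries, whereas for H2-Aa Ang II replicate 3 lay above Ctrl replicate 2. H2-Eb1, the beta chain of I-E, stood at 25.7, 12.9 and 22.8 CPM in Ctrl, at 9.56, 13.9 and 21.6 CPM in Ang II, and at 48.0, 18.9 and 27.1 CPM in Kmo+Ang II, and its groups overlapped. The alpha chain of I-E, H2-Ea, carries a promoter deletion in C57BL/6 mice, and it was at 0 counts in 8 libraries, which allows up to 3 counts each, and at 6 counts in Kmo+Ang II replicate 3.

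Cd74, the invariant chain, stood at 84.8, 57.3 and 79.6 CPM in Ctrl, at 23.2, 55.4 and 44.7 CPM in Ang II, and at 110.1, 70.9 and 124 CPM in Kmo+Ang II. The Ang II libraries lay below every other library, with 55.4 CPM in the highest of them and 57.3 CPM in the lowest Ctrl library. All 4 class II genes were lowest in Ang II replicate 1. H2-Aa, H2-Ab1 and H2-Eb1 were highest in Kmo+Ang II replicate 1 and Cd74 in Kmo+Ang II replicate 3. Their highest library was between 5.02 and 5.82 times the lowest, a wider range than that of any class I gene.

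**Figure D2:**
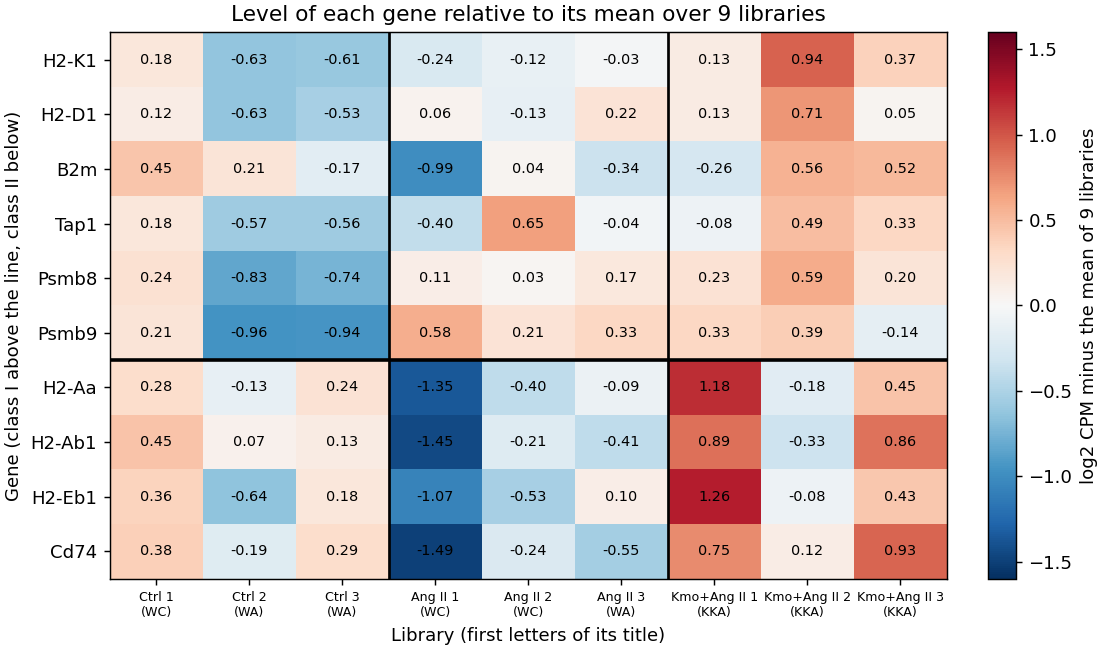
Rows are the 10 genes and columns the 9 libraries with their title letters; colour and number give log2 CPM minus the gene's mean over 9 libraries. The class II rows carry their lowest values in Ang II replicate 1 (-1.07 to -1.49), and the rows of the heavy chains, Tap1, Psmb8 and Psmb9 carry low values in Ctrl replicates 2 and 3.

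No gene of the 10 passed the test in any of the 5 comparisons made (edgeR's quasi-likelihood test, adjusted p under 0.05 over all 19091 genes). No other gene passed it either: percent called was 0% in each comparison. DESeq2 and limma-voom called 0 of the 10 members in each comparison as well. Over all genes DESeq2 called 8 between Ang II and Ctrl, 3 between Kmo+Ang II and Ang II, 9 between Kmo+Ang II and Ctrl and 4 against the mean of the other groups. At an unadjusted p under 0.05 DESeq2 gave 3, 6, 3 and 5 members in these comparisons, beside 6.97%, 3.06%, 3.99% and 3.03% of all genes. With limma-voom it was 3, 4, 4 and 3 members, beside 5.25%, 2.16%, 2.35% and 2.28% of all genes. The counts of genes that follow at an unadjusted p under 0.05 are therefore descriptions, to be read beside the share of all genes at that level. The members were also chosen with earlier results of these data in view.

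Between Ang II and Ctrl the classes stood on opposite sides of 0. All 4 class II genes were lower in Ang II, with a median log2 difference of -0.74. Among the class I genes 5 of 6 were higher, with a median of 0.39, and B2m was lower. The median of all genes was 0.02, and 52% of them were above 0. Cd74 averaged 73.9 ± 14.6 CPM in Ctrl and 41.1 ± 16.4 CPM in Ang II (SD, n = 3 libraries each), a log2 difference of -0.85 ± 0.35 (SE). Its unadjusted edgeR p was 0.0349 and its adjusted p 0.890. For Psmb9 the means were 8.15 ± 4.14 and 14.5 ± 1.92 CPM, a log2 difference of 0.83 ± 0.32, with an unadjusted edgeR p of 0.0277 and an adjusted p of 0.890. These were the 2 of 10 members with an unadjusted p under 0.05, beside 5.25% of all genes. The log2 difference was -0.82 ± 0.38 for H2-Ab1, -0.66 ± 0.38 for H2-Aa, -0.45 ± 0.41 for H2-Eb1 and -0.55 ± 0.37 for B2m. It was 0.46 ± 0.29 for Psmb8, 0.41 ± 0.32 for Tap1, 0.36 ± 0.31 for H2-D1 and 0.17 ± 0.32 for H2-K1. Groups did not overlap for 1 member that was higher, Psmb9, and 2 that were lower, H2-Ab1 and Cd74, beside 6.44% of all genes that were higher and 5.74% that were lower in this way.

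The title letters divided the Ang II and Ctrl comparison further. Within WC, 2 Ang II libraries against 1 Ctrl library, log2 CPM differed by -1.24 for Cd74, -1.28 for H2-Ab1, -1.16 for H2-Aa and -1.16 for H2-Eb1. Within WA, 1 Ang II library against 2 Ctrl libraries, the values were -0.59, -0.51, -0.14 and 0.33. The class II genes were thus lower within both, except H2-Eb1 within WA. For the class I genes the letters did not give the same sign. Psmb8 differed by -0.18 within WC and by 0.96 within WA, H2-D1 by -0.16 and 0.80, H2-K1 by -0.36 and 0.59, and Tap1 by -0.05 and 0.53. Psmb9 was higher within both, by 0.18 and 1.28, and B2m lower within both, by -0.92 and -0.36. With 1 library on a side these values have no error and were not tested.

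The scaling of the libraries also bore on this comparison. The TMM factors ran from 0.681 to 0.882 in Ctrl, from 1.18 to 1.36 in Ang II and from 0.794 to 1.14 in Kmo+Ang II, and mitochondrially encoded genes took 43.4% to 52.6%, 30.3% to 39.5% and 30.5% to 55.5% of counts. When libraries were scaled by their size alone, the median log2 difference between Ang II and Ctrl over all genes moved from 0.02 to 0.67. B2m then stood at 0.08 and H2-Eb1 at 0.16, the opposite sign, H2-Aa at -0.05, H2-Ab1 at -0.21 and Cd74 at -0.24. Relative to that median Cd74 was at -0.92, B2m at -0.60, H2-Eb1 at -0.52 and Psmb9 at 0.79. Leaving out Ang II replicate 1 moved Cd74 to -0.56, H2-Ab1 to -0.53, H2-Aa to -0.38 and H2-Eb1 to -0.20. The class I values moved with the Ctrl libraries. Without Ctrl replicate 1 Psmb9 stood at 1.34, Psmb8 at 0.89, Tap1 at 0.71, H2-D1 at 0.64 and H2-K1 at 0.49. Without Ctrl replicate 2 Psmb9 came to 0.64 and H2-K1 to 0.03, and without Ctrl replicate 3 to 0.64 and 0.04. Tap1 came to 0.07 without Ang II replicate 2.

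**Figure D3:**
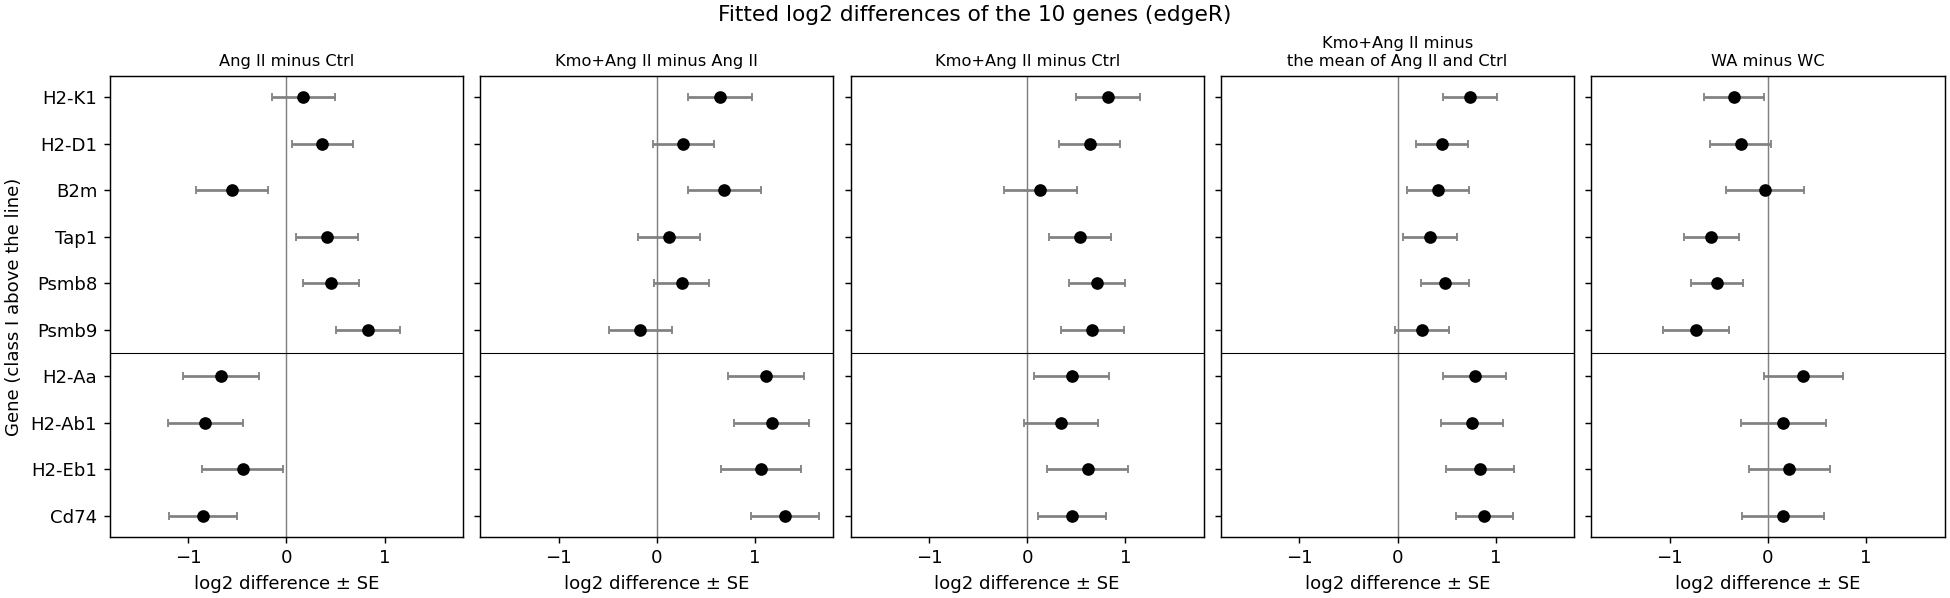
Points are fitted log2 differences and bars 1 SE for the 10 genes in each of the 5 comparisons. Class II genes lie below 0 between Ang II and Ctrl (-0.85 to -0.45) and above 0 between Kmo+Ang II and Ang II (1.06 to 1.31), while class I genes lie closer to 0 in the latter (-0.17 to 0.69).

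Between Kmo+Ang II and Ang II all 4 class II genes were higher in Kmo+Ang II, with a median log2 difference of 1.14 beside 0.03 for all genes, of which 54.5% were above 0. Cd74 averaged 101.7 ± 27.6 CPM in Kmo+Ang II and its log2 difference was 1.31 ± 0.35, a 2.47-fold difference, with an unadjusted edgeR p of 0.00387 and an adjusted p of 0.9998. It ranked 12 by p among the 19091 genes. The log2 difference was 1.17 ± 0.38 for H2-Ab1, 1.12 ± 0.39 for H2-Aa and 1.06 ± 0.41 for H2-Eb1, with unadjusted edgeR p-values of 0.0118, 0.0161 and 0.0274. The 4 class II genes were thus the 4 of 10 members with an unadjusted p under 0.05, beside 2.16% of all genes. For Cd74 the groups did not overlap, while for the 3 chains Kmo+Ang II replicate 2 lay among the Ang II libraries. Among the class I genes the log2 difference was 0.69 ± 0.37 for B2m, 0.65 ± 0.33 for H2-K1, 0.27 ± 0.31 for H2-D1, 0.25 ± 0.28 for Psmb8, 0.12 ± 0.32 for Tap1 and -0.17 ± 0.32 for Psmb9. The groups did not overlap for 3 members, Cd74, H2-K1 and Psmb8, all of them higher, beside 3.22% of all genes, and for 0 members that were lower, beside 2.94%. This comparison and the one before it share the Ang II libraries, so opposite signs in them are not separate evidence.

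Single libraries moved these values. Without Kmo+Ang II replicate 1 the log2 difference between Kmo+Ang II and Ang II was 0.69 for H2-Aa and 0.61 for H2-Eb1, and without Kmo+Ang II replicate 2 it was 0.38 for H2-K1. Cd74 stayed between 1.02, without Ang II replicate 1, and 1.58, without Ang II replicate 2. Scaled by library size alone, all genes had a median of -0.29, and H2-D1 at -0.04, Tap1 at -0.19 and Psmb8 at -0.07 changed sign, while the class II genes stood between 0.78 and 0.98. Relative to that median H2-D1 was at 0.25, Tap1 at 0.10 and Psmb8 at 0.22.

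Between Kmo+Ang II and Ctrl all 10 members were higher in Kmo+Ang II and every member's groups overlapped, while 4.13% of all genes were higher and 2.64% lower with no overlap. The median log2 difference was 0.65 for class I and 0.46 for class II, beside 0.05 for all genes, of which 55.4% were above 0. H2-K1 at 0.82 ± 0.33 and Psmb8 at 0.71 ± 0.29 were the 2 of 10 members with an unadjusted p under 0.05, beside 2.79% of all genes, and their adjusted p in edgeR was 0.998. The differences of the others lay between 0.13 ± 0.37 for B2m and 0.66 ± 0.32 for Psmb9. Without Ctrl replicate 3, B2m came to -0.02. Without Kmo+Ang II replicate 1 the class II differences came to 0.03 for H2-Aa, 0.16 for H2-Ab1, 0.17 for H2-Eb1 and 0.40 for Cd74. Without Ctrl replicate 1 Psmb9 stood at 1.17 and Psmb8 at 1.14.

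Kmo+Ang II was also set against the mean of Ang II and Ctrl, which sets it against all other 6 libraries, although the spread is still estimated within the labelled groups. All 10 members were higher in Kmo+Ang II, by 0.25 ± 0.28 (Psmb9) to 0.88 ± 0.29 (Cd74) on the log2 scale, beside 55.7% of all genes above 0. The median was 0.43 for class I, 0.81 for class II and 0.03 for all genes. An unadjusted edgeR p under 0.05 was reached by 5 of 10 members, beside 2.61% of all genes. They were Cd74 (0.0123), H2-K1 (0.0230), H2-Eb1 (0.0347), H2-Aa (0.0353) and H2-Ab1 (0.0384). The adjusted p of each was 0.99998, and for every member at least 1 Kmo+Ang II library lay within the range of the other 6, while 0.754% of all genes lay above and 0.335% below that range in all 3. For Cd74 that was replicate 2, at 70.9 CPM beside a highest value of 84.8 CPM among the other 6. Without Kmo+Ang II replicate 1 the log2 difference was 0.36 ± 0.31 for H2-Aa, 0.39 ± 0.33 for H2-Eb1, 0.57 for H2-Ab1 and 0.82 for Cd74, and without Kmo+Ang II replicate 2 it was 0.47 for H2-K1.

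Between WA and WC, the grouping by title letters, the class I genes were all lower in WA, with a median log2 difference of -0.43, and the class II genes all higher, with a median of 0.19, beside -0.03 for all genes, of which 48.3% were above 0. Groups overlapped for every member, while 16.5% of all genes were higher and 17.2% lower with no overlap. Psmb9 differed by -0.73 ± 0.34, Tap1 by -0.58 ± 0.28 and Psmb8 by -0.52 ± 0.27, with adjusted edgeR p-values of 0.278, 0.303 and 0.319. None of the 10 members had an unadjusted p under 0.05 beside 18% of all genes. Where only the WA and WC libraries were fitted, 13.3% of genes passed at an adjusted p under 0.05 and 0 of the 10 members did, with 0 members at an unadjusted p under 0.05. DESeq2 and limma-voom also called 0 members in this comparison, with 1 member each at an unadjusted p under 0.05, beside 20.5% and 17.8% of all genes. Not all class II signs were stable. Without Ang II replicate 1, H2-Ab1 and Cd74 came to -0.21 each and H2-Eb1 to -0.06, while H2-Aa stayed at 0.04. When libraries were scaled by size alone, H2-Ab1 and Cd74 stood at -0.08 and -0.09, where all genes had a median of -0.33. Relative to that median they stood at 0.25 and 0.24.

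Class I and class II varied along different lines among the libraries. The class II genes moved together, with Pearson's r between 0.82 and 0.96 over the 9 libraries for their 6 pairs (median 0.92). The 15 class I pairs ran from -0.24 to 0.95 (median 0.63), with H2-D1 and Psmb8 at 0.95, H2-K1 and H2-D1 at 0.92 and Psmb8 and Psmb9 at 0.90. The r of B2m was 0.53 with Tap1, 0.50 with H2-K1, 0.16 with H2-D1, 0.14 with Psmb8 and -0.24 with Psmb9, and 0.71 with Cd74, 0.61 with H2-Ab1, 0.45 with H2-Aa and 0.30 with H2-Eb1. The 24 pairs across the classes ran from -0.32 to 0.71 (median 0.16), and the mean log2 levels of the classes had an r of 0.19 and a Spearman's rho of 0.30. These values are descriptions: the points share library, depth and scaling, and include the group differences.

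**Figure D4:**
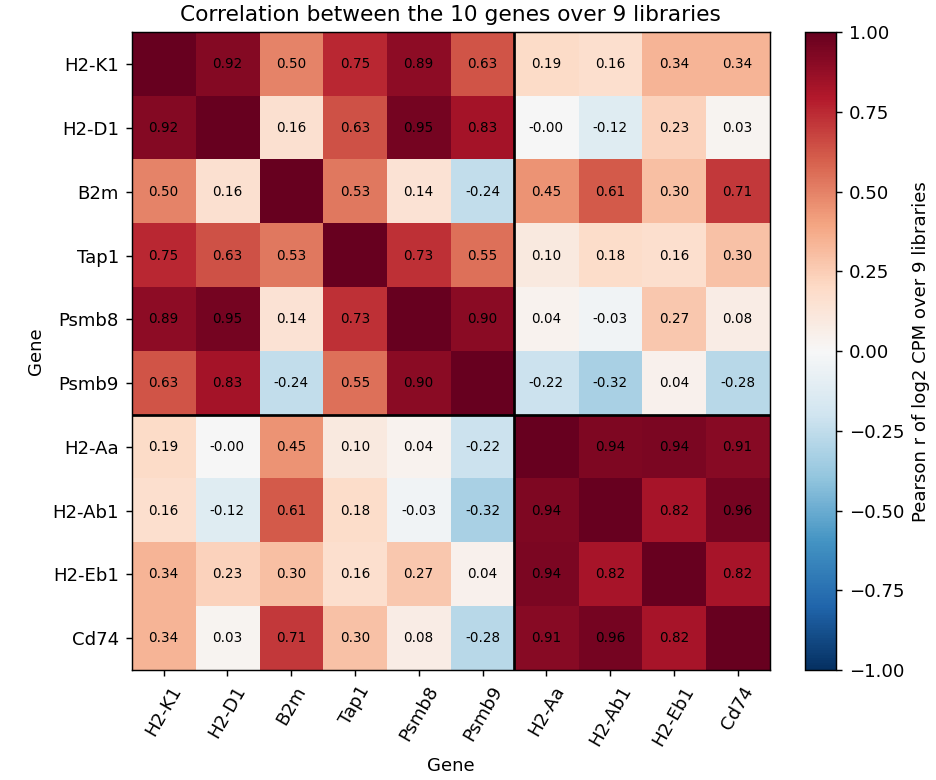
Rows and columns are the 10 genes, and colour and number give Pearson's r of log2 CPM over 9 libraries. The class II block holds r of 0.82 or more, and the block across the classes has a median of 0.16.

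A ratio within a library does not depend on scaling. Summed counts of the 4 class II genes amounted to 15.2%, 14.5% and 22.1% of the summed class I counts in the Ctrl libraries, to 7.33%, 11.9% and 12.2% in the Ang II libraries, and to 28.6%, 8.68% and 19.2% in the Kmo+Ang II libraries. The Ang II libraries lay below all Ctrl libraries, and Kmo+Ang II ran from 8.68% to 28.6%, with replicate 2 among the Ang II libraries. Such sums follow mainly the genes with the most counts, B2m and the heavy chains for class I and Cd74 for class II. B2m gave 18185 of 60012 class I counts in Ang II replicate 1 and 20672 of 34507 in Ctrl replicate 2. Cd74 counts were 34.2%, 40.6% and 55.5% of H2-K1 counts in Ctrl, 12.5%, 27.5% and 20.8% in Ang II, and 46.1%, 16.9% and 43.9% in Kmo+Ang II. Every Ang II library lay below every Ctrl library here too, but both ratios hold the Cd74 and H2-K1 counts, so they are not separate evidence. Ratios were not computed for all genes, so no share of all genes stands beside them. Within a class, H2-K1 was 72.1% to 111% of H2-D1, H2-Aa 86.0% to 142% and H2-Eb1 52.2% to 122% of H2-Ab1 in the 9 libraries.

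**Figure D5:**
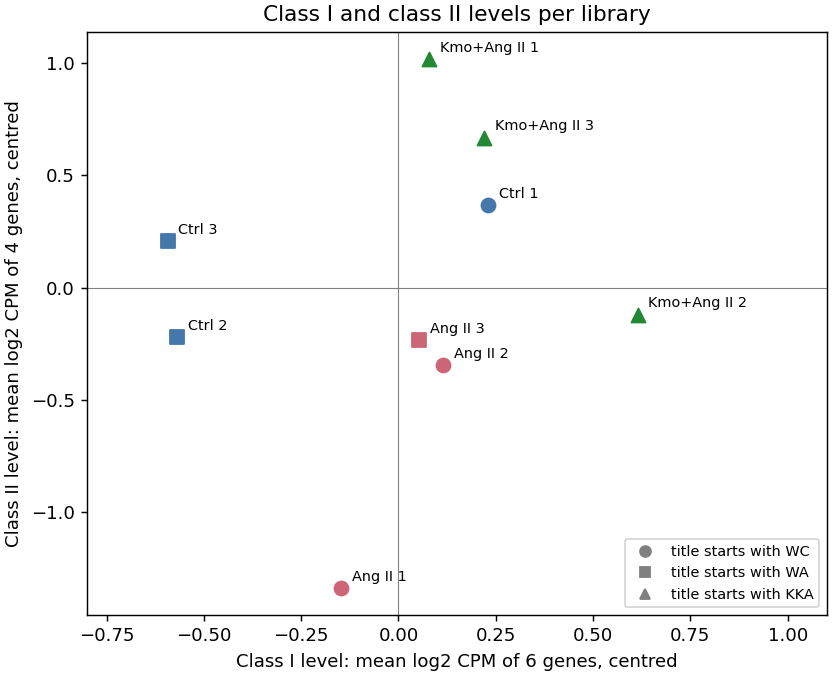
Each point is 1 library, with the mean log2 CPM of the 6 class I genes on the horizontal axis and of the 4 class II genes on the vertical axis, both centred on their mean over 9 libraries. Ang II replicate 1 is lowest for class II (-1.34) near the middle for class I (-0.15), and Kmo+Ang II replicate 2 is highest for class I (0.61) with class II at -0.12.

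Other genes of the pathway were followed in lists that hold the members too, and no gene of any list passed the test in any comparison. Of the 17 listed class I heavy chain genes 15 were tested, and H2-Q2 was at 0 counts in every library. Against the mean of Ang II and Ctrl all 15 were higher in Kmo+Ang II, with a median log2 difference of 0.45. H2-T22, a nonclassical heavy chain gene, had the smallest p there, at 0.62 ± 0.18 with an unadjusted edgeR p of 0.00569 and an adjusted p of 0.99998. All its Kmo+Ang II libraries lay above the other 6, as for 0.754% of all genes, and 1 tested gene of this list did so. Against Ctrl alone H2-T22 differed by 0.83 ± 0.21. Its transcript shares 44.7% of its 50-base windows with other genes, so its value is uncertain. Mr1, which presents vitamin metabolites to a class of innate T cells, had the smallest p of the list between Ang II and Ctrl, at -0.88 ± 0.24 with an unadjusted edgeR p of 0.00427 and an adjusted p of 0.890. Between WA and WC it was H2-T10, another nonclassical gene, at -0.90 ± 0.28.

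In class I peptide loading all 11 genes were tested. Between Kmo+Ang II and Ang II 8 were higher and 3 lower, with a median of 0.10, and between Ang II and Ctrl 6 were higher and 5 lower, with a median of 0.04. Tap2, the partner of Tap1, had the smallest p between Ang II and Ctrl, at 0.48 ± 0.25. The endoplasmic reticulum chaperone Calr had it between WA and WC, at 0.92 ± 0.27, with an adjusted edgeR p of 0.224. Nlrc5, the class I coactivator, stood at 13.1, 7.75 and 7.03 CPM in Ctrl, at 5.13, 22.7 and 13.5 CPM in Ang II, and at 13.9, 8.97 and 13.5 CPM in Kmo+Ang II. Its groups overlapped in every comparison, and like Tap1 it was highest in Ang II replicate 2.

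Of the 7 genes of the immunoproteasome and its activators, 5 were higher between Ang II and Ctrl, with a median of 0.21, and 6 between Kmo+Ang II and Ang II, with a median of 0.25. Psme3, an activator subunit found in the nucleus, had the smallest p between Ang II and Ctrl, at -0.70 ± 0.25, opposite in sign to Psmb9. The 3 constitutive catalytic subunits Psmb5, Psmb6 and Psmb7 had medians of 0.24 and -0.14 in these comparisons. Per length, the level of Psmb8 relative to Psmb5, the subunit it replaces, was 0.111 ± 0.0901 in Ctrl, 0.130 ± 0.0681 in Ang II and 0.215 ± 0.135 in Kmo+Ang II. That of Psmb9 relative to Psmb6 was 0.0883 ± 0.0570, 0.133 ± 0.0337 and 0.133 ± 0.0350. That of Psmb10, of the same list, relative to Psmb7 was 0.906 ± 0.373, 1.22 ± 0.481 and 1.66 ± 0.739. The groups overlapped for all 3 ratios. Their size depends on the length used: the joined exons of Psmb8 span 3.381 kilobases and its longest coding transcript 1628 bases. For Psmb9 these were 3.66 kilobases and 1352 bases. As plain counts, the ratios ran from 0.214 to 1.26, from 0.100 to 0.323 and from 0.334 to 1.16, in that order.

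Among the 18 genes of class II peptide loading and regulation, Ctss, the protease that removes the invariant chain, had the smallest p in each comparison of Kmo+Ang II. It stood at 6.87, 5.82 and 8.15 CPM in Ctrl, at 5.17, 3.78 and 6.82 CPM in Ang II, and at 9.45, 10.4 and 14.8 CPM in Kmo+Ang II. Every Kmo+Ang II library lay above the other 6, as for 0.754% of all genes, and 1 tested gene of this list did so. Ctss was named because its p was the smallest of the list. Its log2 difference was 1.14 ± 0.28 against Ang II and 0.93 ± 0.23 against the mean of Ang II and Ctrl, with unadjusted edgeR p-values of 0.00236 and 0.00254 and adjusted p-values of 0.9998 and 0.99998. Lgmn, a protease of the same compartment, had the smallest p between Ang II and Ctrl, at -0.67 ± 0.25. Of the 18 genes 8 were higher between Ang II and Ctrl, with a median of -0.20, and 13 between Kmo+Ang II and Ang II, with a median of 0.27.

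Ciita, the class II coactivator, was measured at low counts, from 54 to 187. It stood at 1.97, 2.10 and 1.49 CPM in Ctrl, at 0.742, 1.23 and 1.05 CPM in Ang II, and at 2.23, 0.824 and 2.49 CPM in Kmo+Ang II. All Ang II libraries lay below all Ctrl libraries, and Kmo+Ang II replicate 2 lay among the Ang II libraries, as it did for the class II chains. The log2 difference of Ciita was -0.88 ± 0.44 between Ang II and Ctrl (unadjusted edgeR p of 0.0765) and 0.87 ± 0.44 between Kmo+Ang II and Ang II (0.0770). Ifng, the cytokine that induces both classes, was at 0 counts in 7 libraries, at 14 counts in Kmo+Ang II replicate 1 and at 7 counts in Kmo+Ang II replicate 2, and was not tested. Of the 20 listed genes of its signalling 19 were tested, of which 13 were higher between Ang II and Ctrl and 12 between Kmo+Ang II and Ang II, with medians of 0.13 and 0.06. Irf8, a transcription factor of myeloid cells, had the smallest p of that list against Ctrl, at 0.61 ± 0.24. Of the 7 costimulation genes 6 were tested. Their smallest p between Kmo+Ang II and Ang II was that of Cd86, a T cell costimulatory ligand of antigen presenting cells, at 0.60 ± 0.31, and the medians were 0.14 between Ang II and Ctrl and 0.08 between Kmo+Ang II and Ang II.

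In whole heart, a higher level of these genes cannot be told apart from more cells that carry them. Cardiomyocyte genes summed to between 18184 and 42946 CPM in the 9 libraries, and none of the 8 was at 0. The 10 dendritic cell markers summed to 28.9 to 45.5 CPM in Ctrl, 37.2 to 48.4 in Ang II and 30.7 to 39.8 in Kmo+Ang II. For the 16 macrophage and monocyte markers the ranges were 147 to 198, 127 to 179 and 135 to 339 CPM, and for the 10 B cell markers 14.9 to 24.9, 11.8 to 22.6 and 17.4 to 41.6 CPM. The groups overlapped for these 3 kinds of class II carrying cells. Between Kmo+Ang II and Ang II 15 of 16 macrophage markers were higher, with a median log2 difference of 0.75. So were 6 of 10 B cell markers, with a median of 0.29, and 6 of 9 tested dendritic cell markers, with a median of 0.09. Of all genes 54.5% were above 0. The 14 T and NK cell markers summed to 12.3 to 14.1 CPM in Kmo+Ang II, above the other groups at 3.65 to 9.92 and 3.06 to 8.93 CPM. None of these markers passed the test. Over the 9 libraries, r with the class II level was 0.60 for fibroblast, 0.54 for B cell, 0.47 for T and NK cell, 0.36 for atrial, 0.24 for macrophage, 0.09 for dendritic cell, -0.53 for neutrophil and -0.67 for endothelial markers. With the class I level r was 0.80 for T and NK cell, 0.55 for macrophage, 0.51 for dendritic cell, 0.49 for neutrophil, 0.43 for endothelial and -0.48 for cardiomyocyte markers. The part of these cells in the differences was not tested.

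Some libraries stood apart in other tissue markers. Kmo+Ang II replicate 3 had the highest sums of the fibroblast (3232 CPM), atrial (2314 CPM), epicardial and mesothelial (114 CPM) and adipocyte (30.1 CPM) lists. The other 8 libraries reached at most 1305, 1239, 20.9 and 5.15 CPM. Without it the log2 difference between Kmo+Ang II and Ang II was 1.14 for Cd74, 0.9995 for H2-Ab1, 1.18 for H2-Aa and 1.16 for H2-Eb1. The atrial list moved with the class II comparisons as well. All 5 of its tested genes were lower between Ang II and Ctrl, with a median log2 difference of -3.63. An unadjusted edgeR p under 0.05 was reached by 0 of them, beside 5.25% of all genes. All 5 were higher between Kmo+Ang II and Ang II, with a median of 6.08 and 4 at that level, beside 2.16% of all genes. Atrial genes summed to 1196, 139 and 2314 CPM in Kmo+Ang II, to 119, 61.2 and 816 CPM in Ang II and to 129, 766 and 1239 CPM in Ctrl. Of 8 fibroblast genes 7 were lower between Ang II and Ctrl and 8 higher between Kmo+Ang II and Ang II, with medians of -0.34 and 0.81. Their part in the class II differences was not tested. Neutrophil markers summed to 377 CPM in Kmo+Ang II replicate 2 and 195 CPM in Ang II replicate 1. The former has the highest class I level and the latter the lowest class II level. The title letters also went with tissue markers. Atrial genes summed to 766 to 1239 CPM in WA and 61.2 to 129 CPM in WC. For dendritic cell markers the ranges were 28.9 to 37.2 and 45.5 to 48.4 CPM, and for endothelial markers 2340.3 to 2872 and 2908 to 3523 CPM. They were 9.52 to 15.5 and 41.9 to 195 CPM for neutrophil markers, and 127 to 159 and 165 to 198 CPM for macrophage and monocyte markers. Epicardial and mesothelial markers summed to 11.5 to 17.5 and 18.9 to 20.9 CPM. Haemoglobin genes took 0.0144% to 0.0364% of counts in WA and 0.345% to 0.986% in WC, the highest share being that of Ang II replicate 1. In the Kmo+Ang II libraries they took 0.0267% to 0.0541%. The sums of the B cell, T and NK cell, fibroblast and adipocyte lists overlapped. Of all single genes, 16.5% were higher and 17.2% lower in WA with no overlap. Of the 14 T and NK cell markers 12 were lower in WA, with a median of -1.35. An unadjusted edgeR p under 0.05 was reached by 6 of them, beside 18% of all genes. Of the 8 cardiomyocyte genes 7 were higher in WA, with a median of 0.57, and they summed to 33731 to 42946 CPM in WA and 22870 to 30027 CPM in WC. Their part in the class I difference between WA and WC was not tested.

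The genes outside these lists whose levels were most like those of each class were found among 11000 candidates over the 9 libraries. For the class I level they were Lrmp (r of 0.97), Acat2 (0.94), Soga1 (0.93), Tor4a (0.92) and Cnga3 (0.92). For the class II level they were Ppfia4 (0.92), Tcap (0.90), Rtl8c (0.89), Intu (0.88) and Casp12 (0.88). The genes were picked as the highest of many values, so their r carries no test.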

How the data were processed

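Poly(A) RNA of 9 heart libraries was sequenced in pairs of reads, per the labels' protocols, which also speak of an adipose type. The authors deposited whole-number counts for 55401 genes, not scaled for depth or length, per the file headers. Bowtie 0.12.2, HISAT2 2.0, StringTie 1.3.0 and the build mm8 are listed without role or order, per the submitters' processing notes. How reads were counted, on which annotation and with what strand setting is not given in the sources used here. Totals ran from 56827533 to 73194268 counts per library, and no 2 libraries agreed within counting noise (lowest chi-square per degree of freedom 62.1). Symbols were matched for 55141 genes.

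Comparisons used edgeR 4.0.16 (R 4.3.3): quasi-likelihood F test with robust dispersions, TMM factors and filterByExpr, all 9 libraries in 1 fit per grouping, and Benjamini-Hochberg adjustment over all 19091 genes tested. The standard error was computed from each difference and its F statistic and so restates the test. CPM use TMM library sizes, and log2 CPM a prior count of 2. Replicate numbers follow sample order and pair nothing. Levels per kilobase use exon unions of a GRCm38 annotation. The fit was run on simulated data with 200 changed genes, whose recovery is not reported here. How large a difference it could detect is therefore left unstated.

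The members and lists were chosen with earlier results of these data known. Named are all members, the gene of each pathway list with the smallest p in a comparison (a part of them is given here), H2-Ea, Ciita, Nlrc5 and Ifng, and the 5 genes with the highest r for each class among tested genes with an established symbol and a mean log2 CPM of at least 1. Alternatives were DESeq2 1.42.0, limma-voom (limma 3.58.1), other scalings and filters, only the groups compared, the other grouping as covariate, and leaving out each library, or the genes of haemoglobin, Nppa and the mitochondrial genome.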

Additional observations from a re-analysis of the deposited data

How the results depend on the processing

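No member passed the threshold in any comparison under any of the alternatives run, and 838 of 860 values kept their direction. Signs turned when libraries were scaled by size alone between Ang II and Ctrl (B2m 0.0768, H2-Eb1 0.16), between Kmo+Ang II and Ang II (H2-D1 -0.0416, Tap1 -0.19, Psmb8 -0.0683) and between WA and WC (H2-Ab1 -0.0833, Cd74 -0.0872). All genes then had medians of 0.67, -0.29 and -0.33 in these comparisons, in that order. Relative to these medians each named gene kept the sign of the main fit. The values were B2m -0.60, H2-Eb1 -0.52, H2-D1 0.25, Tap1 0.10, Psmb8 0.22, H2-Ab1 0.25 and Cd74 0.24. Between WA and WC, B2m stood at 0.0571 with limma-voom and at 0.0285 without mitochondrially encoded, haemoglobin and Nppa genes, and with the labels as covariate H2-Ab1 stood at -0.0303 and Cd74 at -0.0612. Leaving out 1 library, the log2 differences that turned ranged from -0.34 to 0.30 for B2m, -0.21 to 0.62 for Cd74, -0.21 to 0.65 for H2-Ab1 and -0.0562 to 0.70 for H2-Eb1 between WA and WC, from -0.0857 to 0.47 for Tap1 between Kmo+Ang II and Ang II, and from -0.0160 to 0.35 for B2m between Kmo+Ang II and Ctrl. The cause was not tested.

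Calls over all genes between WA and WC moved more: 2409 with only these 6 libraries, 1576 without Kmo+Ang II replicate 1, 514 with DESeq2, 11 with library size scaling and 5 with no filter, beside 0. The covariate could be fitted only for Ang II against Ctrl and WA against WC, and fitting only the groups compared leaves no value for Kmo+Ang II against the mean of the others. No paired analysis was possible because replicate numbers were given in sample order and the labels carry none. With 3 libraries a group, leaving out 1 moved several class II differences by over 1.5 times.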
